A study of Bos taurus with 9 samples.

Results

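The genes described here are 37 genes of apoptosis and of the p53 response, chosen by name and looked up by symbol among the 21512 genes of the deposited expression table. *BIK* was not analysed here. The other 36 had a row, and 34 of them were tested, having a median above 0.1 TPM, the length-corrected unit of transcript abundance, over all embryos. The remaining pair, *BCL2* and *BCL2A1*, was near 0. *BCL2* did not exceed 0.321 TPM in any WT embryo and was listed at 0 in every KO embryo, and *BCL2A1* was above 0 in WT_3 alone.

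Apoptosis in the mitochondrial route is decided among BCL2 family proteins. The effectors open pores in the outer mitochondrial membrane, the anti-apoptotic members hold them back, and the BH3-only members relieve that hold or activate the effectors directly. Cytochrome c released through the pores assembles the apoptosome and starts a caspase cascade, which death receptors can also start from the cell surface. The transcription factor p53 responds to DNA damage and other stress by raising genes of arrest, repair and apoptosis. Scattered apoptotic cells are a common feature of mammalian blastocysts, those produced in vitro included.

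The embryos were individual bovine blastocysts collected on D8, 5 of the genotype WT and 4 of the genotype *TEAD4* -/- (KO), with 1 library per embryo. *TEAD4* encodes a DNA-binding partner of the Hippo pathway coactivator YAP. Oocytes from slaughterhouse ovaries were injected with *Cas9* mRNA and a guide RNA against *TEAD4*, or with *Cas9* mRNA alone for the embryos that served as WT, fertilised with sperm of a single bull and cultured in synthetic oviduct fluid. KO embryos carried frame-disrupting indels only, generated at random, and the alleles of these 4 embryos are not given. The cutting of DNA by a guided nuclease applied to the KO group alone, and it cannot be told apart here from the loss of TEAD4. Each embryo keeps its column name, WT_1 up to WT_5 for the WT group and TE_1 up to TE_4 for the KO group. TPM values sum to 1000000 in every library. They keep no read numbers, so the reads behind a value cannot be recovered from the table and values come without a counting interval.

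Transcripts of *TEAD4* itself were present in all 9 libraries, with 18.0, 52.5, 54.3, 36.5 and 43.4 TPM across the WT embryos (in the order of their numbers, as in all such series here) and 42.8, 41.8, 12.5 and 22.2 TPM across the KO embryos. The genotypes overlapped, and the lowest WT value was that of WT_1 (log2 fold change −0.51 with a standard error, SE, of 0.42, limma adjusted p = 0.947). It was −0.77 without WT_1 and −0.16 without TE_3. Abundance does not show whether a transcript carries an indel, so these values do not check the genotypes.

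The libraries had the markers of a blastocyst. All 8 trophectoderm markers were above 1 TPM in every embryo, with *KRT8* the most abundant at 2721 to 11972 TPM, and all 3 epiblast markers were above 0, with *POU5F1* the most abundant at 773 to 2142 TPM. Of 4 leukocyte markers, *PTPRC* was listed at 0 in every library, *CD3E* did not exceed 0.193 TPM and *CD14* did not exceed 1.16 TPM, while *CD68* was the most abundant at 0.884 to 5.40 TPM. Among 10 cumulus and granulosa markers, *INHA*, *HAS2* and *PTX3* were below 1 TPM everywhere, whereas *HSD3B1* reached 227 TPM and *CYP11A1* 247 TPM, both of which are steroidogenic genes that trophoblast can also express. The summed level of these 10 genes was 487, 274, 212, 285 and 277 TPM in the WT embryos and 65.9, 104, 355 and 17.6 TPM in the KO embryos, lower in 3 of the 4 KO embryos than in any WT embryo. Sperm markers were uneven over their 5 genes. *PRM1* was highest in TE_3 (73.1 TPM) and WT_4 (45.9 TPM), *TNP1* was at 75.1 TPM in WT_4 but 1.69 TPM in TE_3, *SPATA6* ran from 8.73 to 18.8 TPM, *AKAP4* did not exceed 0.0353 TPM and *ODF1* was listed at 0 in every library. The part of these transcripts in the values below was not tested.

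WT_1 stood apart from the other WT embryos before any comparison of genotypes. It had the lowest *SOX2* of the WT embryos (3.89 TPM against 19.5 to 90.4 TPM), *NANOG* at 0.127 TPM against 29.3 to 262 TPM and *PDGFRA* at 0.0277 TPM against 5.43 to 16.1 TPM, and its 14807 genes above 0 TPM were fewer than the 15933 to 16678 of the other WT libraries. The KO libraries, with 14776 to 15375, also had fewer than those 4. It was also the lowest WT embryo in *SOX17* (2.52 TPM against 8.89 to 38.1 TPM), *POU5F1* (773 TPM against 923 to 1693 TPM) and *GATA6* (77.6 TPM against 79.0 to 93.6 TPM), but not in *GATA4* (1.43 TPM against 1.09 to 1.75 TPM). Low values of some of these genes occurred in KO embryos too, with *NANOG* at 2.70 TPM in TE_2 and 3.55 TPM in TE_3, and *SOX2* at 2.26 TPM in TE_3. *GATA4* was lower in every KO embryo (0.367 to 0.957 TPM) than in any WT embryo (limma adjusted p = 0.684), as were 1.23% of all tested genes. The 4 hypoblast markers, *GATA4*, *GATA6*, *SOX17* and *PDGFRA*, all had a log2 fold change below 0 in KO embryos, as did 8150 of 14599 tested genes. *GATA6*, the most abundant of them, was at 29.3, 146, 40.6 and 74.7 TPM in the KO embryos. TE_2 was thus above every WT embryo for this gene, and the other KO embryos were below. Several results are also given without WT_1, a choice made after its values were seen, and the plot of fold changes shows every tested member both ways. TE_1 was alone the lowest of the 9 embryos in 26.6% of all tested genes, and TE_2 was the highest in 23.3%.

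None of the 34 tested genes was called changed in KO embryos (0 past both an adjusted p of 0.05 and a log2 fold change of 1 in size, limma on log2(TPM + 1) with Benjamini-Hochberg adjustment over 14599 genes). Over all tested genes the share called was 0.0205%. At an unadjusted p under 0.05 there was 1 of the 34, *BAX*, against 5.90% of all genes. There were 0 in the limma fits without WT_4, without WT_5 or without trend. The unadjusted p of *BAX* was also not under 0.05 with size factors, after quantile normalization, or without WT_3, TE_1 or TE_3. The genotypes overlapped in every tested member, where 0.801% of all tested genes had every KO embryo above every WT embryo and 1.23% had every KO embryo below. The log2 fold change was above 0 in 18 members and below 0 in 16, with a median of 0.03, beside 44.2% above 0 and a median of −0.05 over all genes. When 1 embryo was left out, the members above 0 ran from 14 (without WT_5) to 23 (without TE_1). Adjusted p-values of the members ran from 0.818 to 0.999. In a whole blastocyst, fewer cells of a type and less RNA per cell cannot be told apart.

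**Figure D1:**
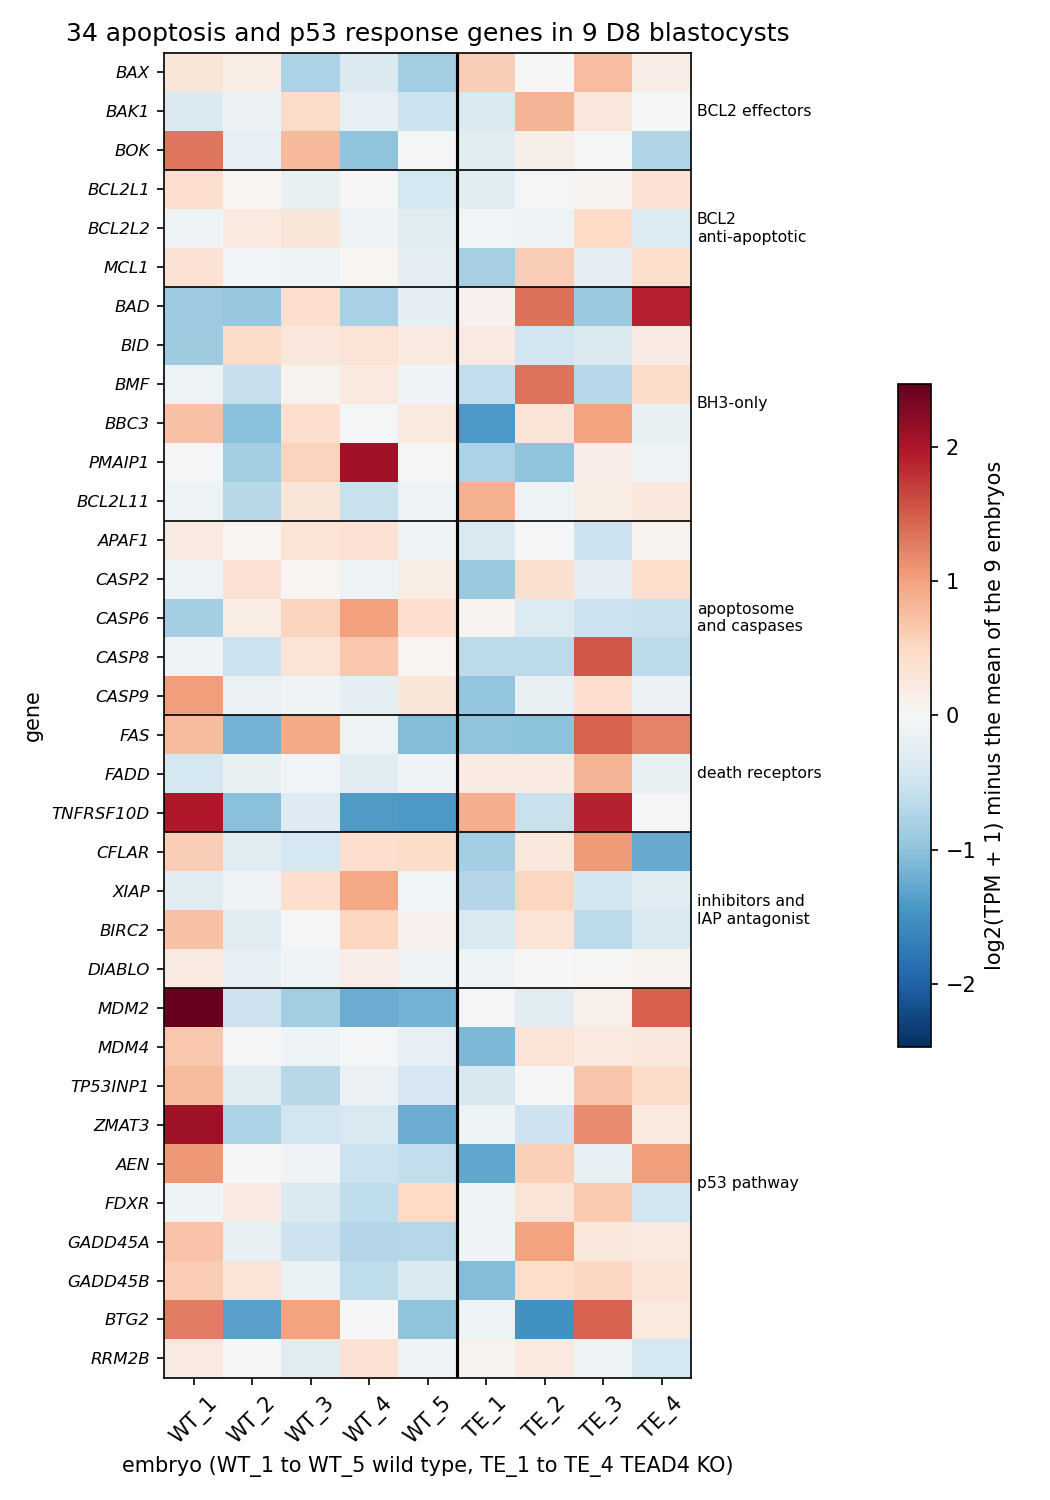
Colour shows log2(TPM + 1) of each tested member (rows, by sub-group) in each embryo (columns), minus the mean of the 9 embryos for that gene. WT_1 is the embryo with the highest value in 6 of the 10 genes of the p53 pathway, and no gene separates the WT columns from the KO columns.

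Among the effectors, *BAX* was by far the most abundant, and with the settings of the report it had the lowest p of all members. It measured 315, 291, 148, 199 and 140 TPM in the WT embryos and 387, 253, 432 and 284 TPM in the KO embryos. Only TE_1 and TE_3 exceeded every WT embryo, and TE_2 and TE_4 were below WT_1 and WT_2. WT embryos averaged 218 ± 80.95 TPM (SD, n = 5) and KO embryos 339 ± 84.3 TPM (SD, n = 4), which is a difference of 0.68 on the log2 scale (SE 0.29, limma adjusted p = 0.818; exact permutation test, two-sided, p = 0.0952, where the smallest p that 126 splits can give is 0.0159). The other pore former, *BAK1*, had means of 58.8 TPM (WT) and 76.2 TPM (KO), and *BOK*, a related protein that is less dependent on BH3-only signals, had means of 47.8 and 31.7 TPM. Both had overlapping genotypes. *BOK* was highest in WT_1 (91.3 TPM), and its log2 fold change was −0.39 with all embryos, −0.11 without WT_1, −0.24 without WT_3, −0.22 without TE_4 and −0.69 without WT_4.

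The anti-apoptotic side rested on *MCL1* and *BCL2L1*, the gene of BCL-XL, since *BCL2L2* stayed below 1 TPM in every embryo. *MCL1* was at 146, 108, 105, 118 and 98.1 TPM in the WT embryos and at 64.3, 174, 97.7 and 154 TPM in the KO embryos. TE_1 was the lowest and TE_2 the highest of all 9, so that the KO values spanned the WT range on both sides (log2 fold change −0.0018, SE 0.29, limma adjusted p = 0.999, and −0.20 to 0.27 when 1 embryo was left out). *BCL2L1* was at 69.7, 53.8, 45.4, 52.6 and 37.9 TPM in WT and 43.4, 50.7, 54.5 and 67.2 TPM in KO. Every KO embryo lay inside the WT range for this gene (log2 fold change 0.07, SE 0.24, limma adjusted p = 0.992, and −0.0433 to 0.18 when 1 embryo was left out).

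Per embryo, the summed TPM of the 3 effectors divided by that of the 5 anti-apoptotic genes was 2.11, 2.33, 1.98, 1.59 and 1.60 in WT and 4.31, 1.81, 3.55 and 1.67 in KO. TE_1 and TE_3 stood above all other embryos, whereas TE_2 and TE_4 were within the WT range. Both high embryos had the highest *BAX* of the 9, and TE_1 also had the lowest *MCL1*.

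Most BH3-only genes varied widely between embryos of the same genotype, and the sub-group had a median within-genotype SD of 0.76 on the log2 scale beside 0.47 over all tested genes. The exceptions were *BID* (0.48) and *BCL2L11* (0.40). *BAD*, whose product binds BCL-XL when dephosphorylated, had the largest log2 fold change of all members with all 9 embryos and the settings of the report, at 15.2, 14.9, 39.4, 16.4 and 24.9 TPM in WT and 31.7, 76.7, 15.1 and 114 TPM in KO. TE_4 and TE_2 were far above the rest, and TE_3 was among the lowest embryos (log2 fold change 1.11, SE 0.52, limma adjusted p = 0.842; exact permutation test, two-sided, p = 0.159). It was 0.67 without TE_4. Without WT_1 it was 1.01, below those of *TNFRSF10D* and *MDM2*. *PMAIP1*, the gene of the MCL1 antagonist NOXA and the most abundant of this sub-group, was at 67.5, 37.7, 101, 294 and 70.3 TPM in WT and 39.7, 34.4, 78.1 and 63.6 TPM in KO. WT_4 stood alone at the top, and the other embryos overlapped (log2 fold change −0.78, SE 0.49, limma adjusted p = 0.910, and −0.35 without WT_4). *BCL2L11*, which encodes BIM, was low, at 1.43 to 3.79 TPM in WT and 2.60 to 6.19 TPM in KO. *BID* was lower in WT_1 (21.3 TPM) than in the other WT embryos (46.7 to 55.0 TPM), *BBC3*, the gene of PUMA, ran from 2.19 to 16.0 TPM, and *BMF* from 0.136 to 3.68 TPM.

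**Figure D2:**
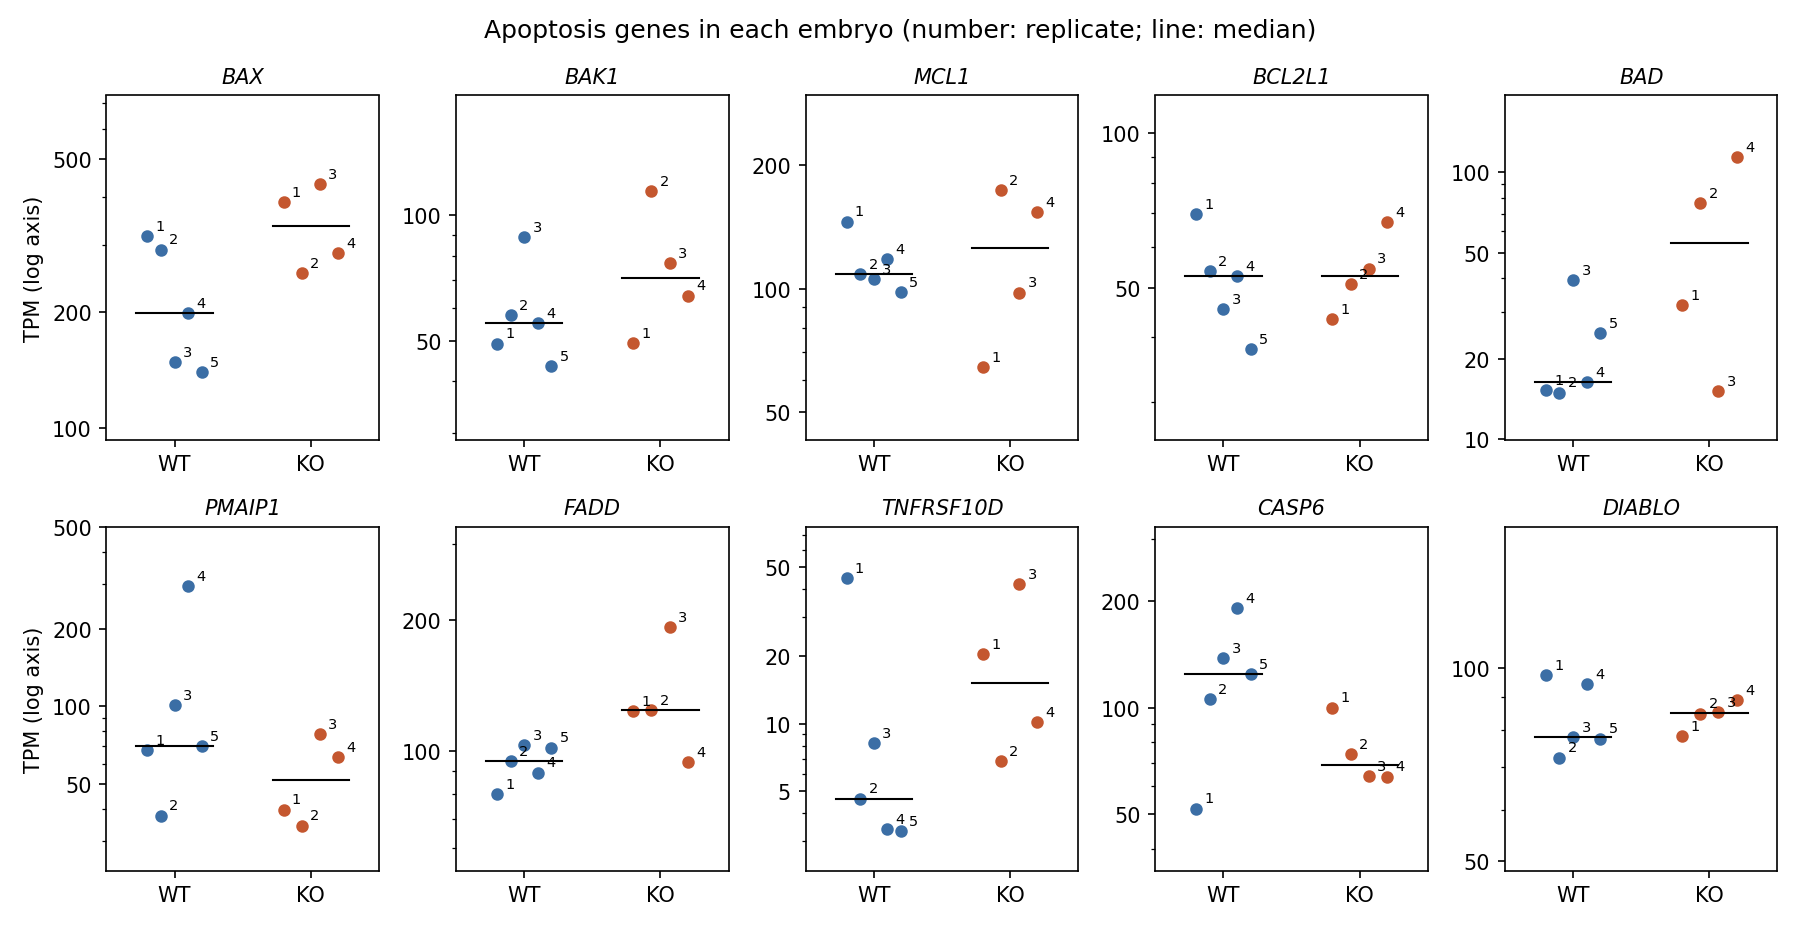
Each panel shows TPM on a log axis for 1 gene in every WT (blue) and KO (orange) embryo, with the replicate number beside each point and a line at the median. The WT and KO points overlap in every panel, and the embryo that stands out changes from gene to gene, such as WT_4 for *PMAIP1* and TE_4 for *BAD*.

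All 5 genes of the apoptosome and caspases had a log2 fold change below 0, with a median of −0.38, and 0 of them had an unadjusted p under 0.05 in limma. Without TE_1, which was alone the lowest embryo in 2 of the 5, *CASP2* was above 0 at 0.13 and the median was −0.14. *CASP6*, an executioner caspase and the most abundant of the sub-group, had 52.0, 106, 138, 191 and 125 TPM in WT and 100.1, 74.0, 64.3 and 64.0 TPM in KO. WT_1 was the lowest of all embryos, while the other 4 WT embryos were above all KO embryos (log2 fold change −0.59, SE 0.34, limma adjusted p = 0.891, and −0.87 with an adjusted p = 0.533 without WT_1). *APAF1*, the scaffold of the apoptosome, was at 0.836 to 1.53 TPM in WT and 0.381 to 1.10 TPM in KO, and the initiator *CASP9* at 4.39 to 11.9 and 2.20 to 7.42 TPM. *CASP8*, the initiator downstream of death receptors, was listed at 0 in TE_1, TE_2 and TE_4 and at 3.56 TPM, the highest of the 9, in TE_3. WT embryos had 0.0804 to 1.48 TPM of it. *CASP2* ran from 3.95 to 11.5 TPM with the extremes in KO embryos.

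The 3 genes of the death receptor sub-group, which holds receptors and an adaptor, had log2 fold changes above 0 with all embryos. That of *FAS* was −0.13 without TE_3 and −0.0545 without TE_4. *FADD*, the adaptor that joins receptors to caspase-8, was the most abundant and was at 79.7, 95.1, 103, 89.4 and 102 TPM in WT and 124, 125, 193 and 94.7 TPM in KO. TE_1 to TE_3 were above all WT embryos, and TE_4 was within the WT range (log2 fold change 0.47, SE 0.23, limma adjusted p = 0.847; exact permutation test, two-sided, p = 0.0635). The side of 0.05 depended on the convention of the exact test, with p = 0.0397 when absolute differences are compared, and the log2 fold change was 0.28 without TE_3. *TNFRSF10D*, the receptor of the ligand TRAIL listed in the table, was at 44.6, 4.64, 8.22, 3.40 and 3.31 TPM in WT and 20.4, 6.84, 42.0 and 10.2 TPM in KO. WT_1 and TE_3 were far above the others (log2 fold change 0.98, SE 0.70, limma adjusted p = 0.931, and 1.59 with an adjusted p = 0.602 without WT_1). It was 0.53 without TE_3. *FAS* was at 0.741 to 6.52 TPM in WT and 0.938 to 9.75 TPM in KO, again with the highest value in TE_3.

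The inhibitors of caspases among the members were low, and the antagonist of the inhibitors was steady. *BIRC5*, an inhibitor family gene outside the members chosen after its values were seen, was not low. It was at 151 to 262 TPM in WT and 145 to 233 TPM in KO. *DIABLO*, whose product leaves mitochondria with cytochrome c and neutralises inhibitors of apoptosis, was at 97.4, 72.5, 78.1, 94.3 and 77.6 TPM in WT and 78.2, 84.8, 85.2 and 89.1 TPM in KO. Its within-genotype SD of 0.15 on the log2 scale was the smallest of all members, and 1.95% of all tested genes had a smaller one. *BIRC2*, a ubiquitin ligase of this family, was at 8.59, 3.80, 4.64, 7.44 and 5.25 TPM in WT and 3.47, 6.35, 2.68 and 3.50 TPM in KO. TE_1, TE_3 and TE_4 were below every WT embryo, and TE_2 was in the upper part of the WT range (log2 fold change −0.48, SE 0.34, limma adjusted p = 0.929). *XIAP*, which blocks caspases directly, did not exceed 3.27 TPM, and *CFLAR*, which blocks caspase-8, did not exceed 4.52 TPM. Without TE_2, *BIRC2* and *XIAP*, 2 of the 34 members, had every KO embryo below every WT embryo, as did 4.12% of all tested genes.

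In the p53 pathway, single embryos stood out in both genotypes. *MDM2*, which encodes the ubiquitin ligase of p53 and is itself raised by p53, was at 299, 36.9, 28.6, 22.1 and 23.2 TPM in WT and 51.6, 44.1, 58.0 and 150 TPM in KO. WT_1 had 10.8 times the mean of the other WT embryos, and TE_4 was next. *ZMAT3*, an RNA-binding protein gene raised by p53, was at 18.4, 1.65, 2.27, 2.50 and 0.963 TPM in WT and 3.18, 2.21, 9.31 and 4.38 TPM in KO. WT_1 was again the highest, with TE_3 next. *MDM2* and *ZMAT3* were chosen for full description after their values were seen.

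*GADD45A*, a stress sensor gene, was the most abundant of the sub-group and, with all embryos and the settings of the report, had its largest log2 fold change. It was at 170.2, 92.4, 72.8, 63.3 and 63.3 TPM in WT and 96.9, 209, 128 and 124 TPM in KO. WT_1 and TE_2 were the highest, and the other 4 WT embryos were below all KO embryos (log2 fold change 0.64, SE 0.33, limma adjusted p = 0.869; exact permutation test, two-sided, p = 0.127). Without WT_1 it was 0.89, with a limma adjusted p = 0.579. *AEN*, *TP53INP1*, *GADD45B* and *MDM4* had their highest value in WT_1 too, at 39.2, 20.0, 66.0 and 14.3 TPM. *AEN*, *GADD45B* and *MDM4* were lowest in TE_1, at 6.83, 19.7 and 3.49 TPM. *BTG2*, an antiproliferative gene, was highest in TE_3 (45.4 TPM) and lowest in TE_2 (4.99 TPM), *FDXR* ran from 19.2 to 48.2 TPM, and the ribonucleotide reductase gene *RRM2B* did not exceed 1.91 TPM.

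**Figure D3:**
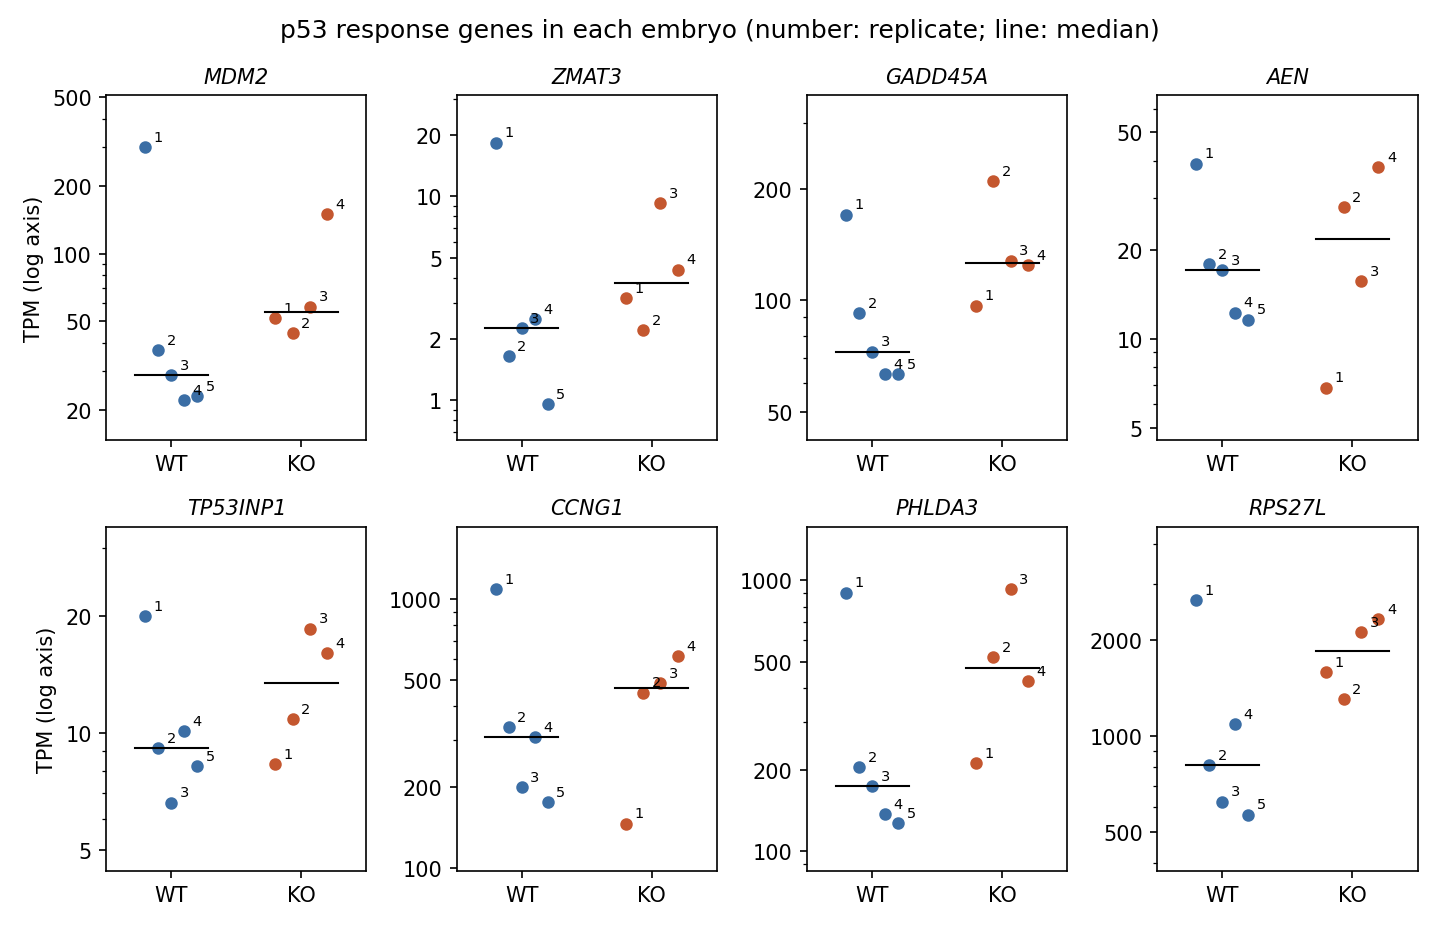
Each panel shows TPM on a log axis for 1 gene in every WT (blue) and KO (orange) embryo, with the replicate number beside each point and a line at the median. The panels are a selection of the p53 response genes. WT_1 is the highest embryo in every panel but those of *GADD45A* (TE_2) and *PHLDA3* (TE_3). Over the full lists it was highest in 6 of 10 p53 pathway members and 12 of 25 other tested p53 targets. Apart from WT_1, the WT points of *MDM2*, *GADD45A*, *PHLDA3* and *RPS27L* lie below all KO points, as in 1.51% of all tested genes.

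WT_1 held the highest value of the 9 embryos in 6 of the 10 p53 pathway members and in 12 of 25 tested p53 targets outside the members. It was the lowest in 3 of those 25, *TP53I11*, *SPATA18* and *SIVA1* (0.103, 0.419 and 51.8 TPM). It was the highest in 6 of the 24 tested members outside the p53 pathway sub-group and in 13.0% of all tested genes. Those 24 include apoptosis genes that p53 can also raise. Among these, *BAX*, *BBC3* and *FAS* were highest in TE_3 and *PMAIP1* in WT_4, while *TNFRSF10D* was highest in WT_1. The summed level of the 10 p53 pathway members was 696, 261, 230, 183 and 200 TPM in the WT embryos and 234, 408, 395 and 438 TPM in the KO embryos. TE_2 to TE_4 were thus between WT_1 and the other WT embryos, and TE_1 was within the range of those 4. The median within-WT SD of the sub-group was 0.57 on the log2 scale with WT_1 and 0.31 without it, beside 0.35 and 0.31 over all tested genes. The part of the low *NANOG*, *SOX2*, *SOX17* and *PDGFRA* of WT_1 in these values was not tested, nor was that of its trophectoderm markers, whose sum was the largest of all embryos (19095 TPM, against 4249 to 14792 TPM in the other WT embryos and 6688 to 13287 TPM in KO) and of which 3 of 8 were highest in WT_1.

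With all embryos, 8 of the 10 p53 pathway members had a log2 fold change above 0, with a median of 0.14, and 0 had an unadjusted p under 0.05 in limma. Without WT_1, 9 were above 0, the median was 0.35 and 3 had an unadjusted p under 0.05, as did 6.12% of all tested genes in that fit. The log2 fold change of *MDM2* went from 0.58 (SE 0.68, limma adjusted p = 0.973) to 1.27 (adjusted p = 0.535), and that of *ZMAT3* from 0.35 (SE 0.61, limma adjusted p = 0.982) to 0.91 (adjusted p = 0.787). Other embryos moved them too. *MDM2* was at 0.20 without TE_4, 0.34 without WT_4 and 0.36 without WT_5, and *ZMAT3* at 0.0238 without TE_3, 0.0857 without WT_5, 0.19 without WT_2 and 0.59 without TE_2. Among all 34 members, the genotypes did not overlap in 3 without WT_1, with *MDM2* and *GADD45A* higher and *CASP6* lower in KO. In that fit 1.51% of all tested genes were higher and 2.20% lower in every KO embryo, and 0 members were called by limma, with 6 of 34 at an unadjusted p under 0.05, beside the 6.12% of all genes. Over the fits without 1 embryo, the median of the p53 pathway members ran from 0.01 without TE_3, where 5 were above 0 and 5 below, to 0.46 without TE_1, where 9 were above 0.

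**Figure D4:**
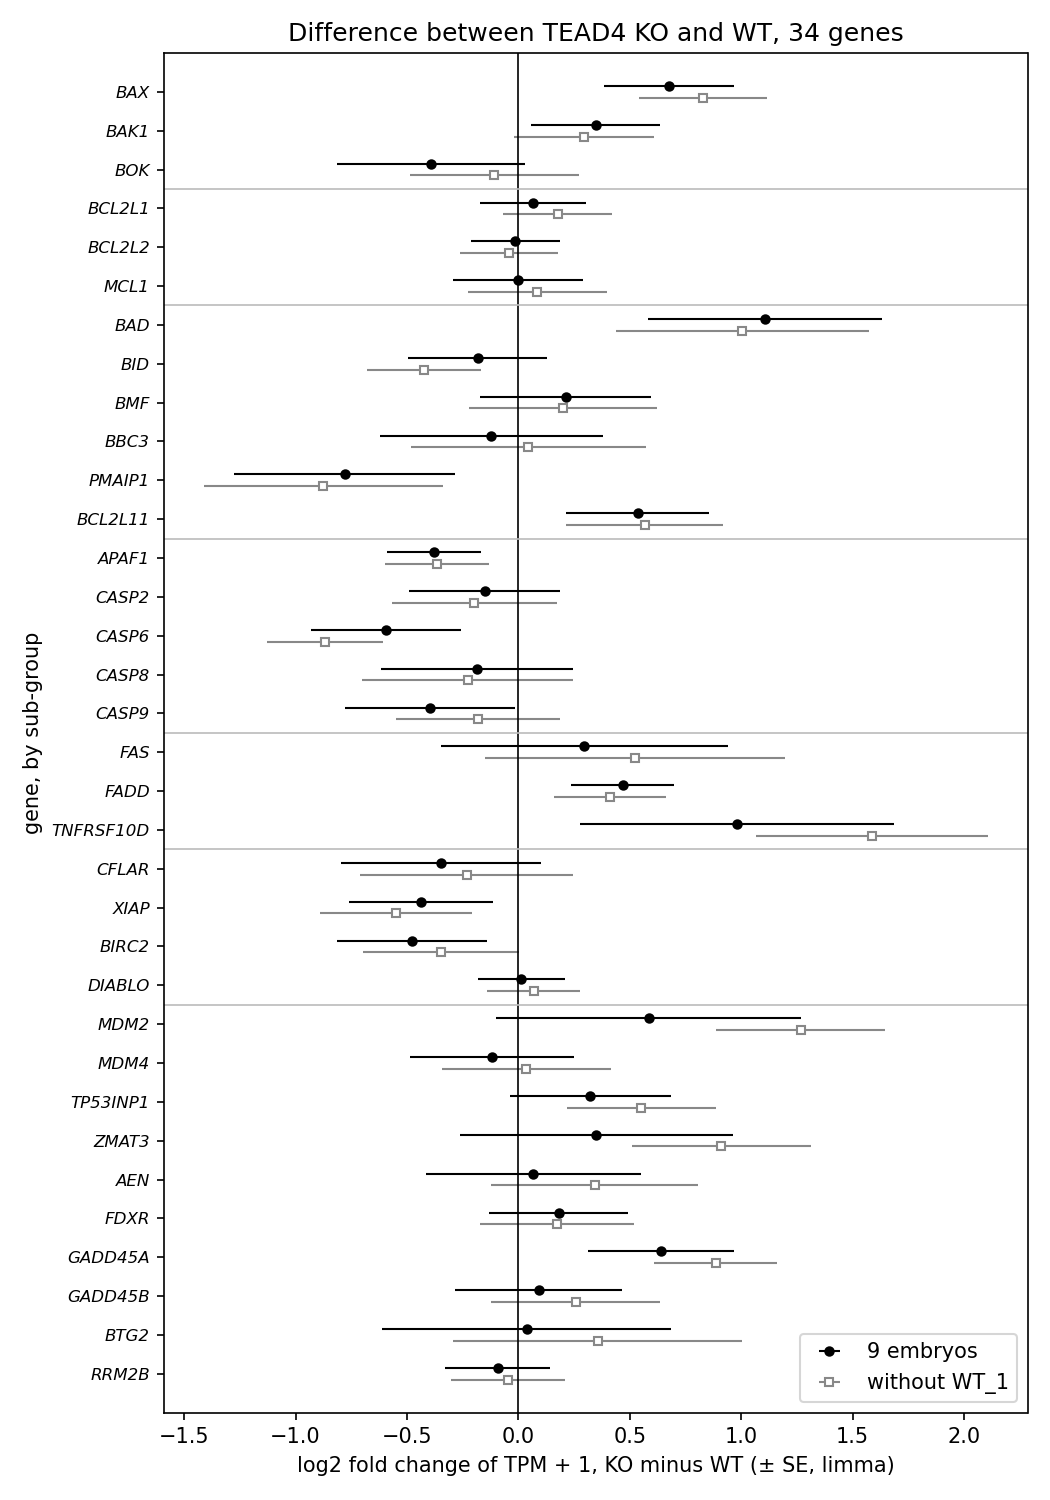
Points are log2 fold changes of TPM + 1 in KO against WT embryos with their standard errors from limma, for each tested member in order of sub-group, with all 9 embryos (filled circles) and without WT_1 (open squares). The largest shifts on leaving WT_1 out are those of *MDM2* (0.58 to 1.27), *TNFRSF10D* (0.98 to 1.59) and *ZMAT3* (0.35 to 0.91).

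Genes of the same pathways outside the members were read from 3 lists. Of 30 other apoptosis genes, 26 were tested, 0 were called and 2 had an unadjusted p under 0.05 in limma, beside the 5.90% of all tested genes. *BCL2L14*, a BCL2-like gene, was at 2.62, 4.79, 7.95, 14.8 and 7.34 TPM in WT and 5.49, 1.44, 1.17 and 1.99 TPM in KO. TE_2 to TE_4 were below every WT embryo and TE_1 was within the WT range (log2 fold change −1.25, SE 0.47, limma adjusted p = 0.743; exact permutation test, two-sided, p = 0.0476, but p = 0.0556 when absolute differences are compared). *TRADD*, an adaptor of the TNF receptor, was at 0.519 to 1.89 TPM in WT and 1.15 to 4.73 TPM in KO, where TE_2 to TE_4 were above every WT embryo (log2 fold change 0.80, SE 0.32, limma adjusted p = 0.783). *CYCS*, the gene of cytochrome c, was the most abundant, at 1886 to 2446 TPM in WT and 2141 to 3786 TPM in KO.

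Of the genes of the p53 family and its regulators, 10 of 10 were tested, 0 were called and 1 had an unadjusted p under 0.05 in limma, beside the same 5.90%. This was *TP73*, a p53 relative, at 0.593 to 0.892 TPM in WT and at 2.19, 1.80, 2.42 and 0.501 TPM in KO, so that TE_1 to TE_3 were above and TE_4 was below all WT embryos (log2 fold change 0.59, SE 0.26, limma adjusted p = 0.823). With a pseudocount of 0.1 TPM its log2 fold change was 0.97, and 0 of the 10 genes had an unadjusted p under 0.05. That count was also 0 when any 1 of WT_2 to WT_5 or of TE_1 to TE_3 was left out. The checkpoint kinase gene *CHEK1* was the most abundant of this list, at 21.2 to 39.1 TPM in WT and 25.2 to 57.1 TPM in KO. None of these 10 genes had its highest value in WT_1.

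Of 27 other p53 targets, 25 were tested, 16 had a log2 fold change above 0 beside 44.2% of all genes, 0 were called and 2 had an unadjusted p under 0.05 in limma beside 5.90%. Without TE_4, 12 of the 25 were above 0 with a median of −0.0124, and 21 were without WT_1. *RPS27L*, a ribosomal protein-like gene raised by p53, was the most abundant, at 2667, 811, 625, 1090.1 and 568 TPM in WT and 1588, 1309.5, 2120.3 and 2335 TPM in KO. WT_1 was the highest of all embryos, and the other 4 WT embryos were below all KO embryos (log2 fold change 0.89, SE 0.41, limma adjusted p = 0.836, and 1.26 with an adjusted p = 0.356 without WT_1). Reads shared with its paralog *RPS27* could have been divided between the genes by the counting. *GDF15*, a stress cytokine gene, was at 0.306 to 2.85 TPM in WT and at 0.910, 0, 0.319 and 0 TPM in KO (log2 fold change −0.86, SE 0.32, limma adjusted p = 0.749). Over the alternatives its log2 fold change ran from −2.30, with a pseudocount of 0.1 TPM, to −0.51. Chosen after their values were seen, *PHLDA3*, which encodes an inhibitor of AKT, was at 902 TPM in WT_1 against 127 to 205 TPM in the other WT embryos and 211 to 927 TPM in KO, and *CCNG1*, the cyclin G1 gene, was at 1094 TPM in WT_1 against 176 to 335 TPM in the other WT embryos and 147 to 614 TPM in KO. Without WT_1, *PHLDA3* and *RPS27L* had every KO embryo above every WT embryo (2 of 25 tested targets), as did *DFFA* among the 26 other apoptosis genes, beside 1.51% of all tested genes (of *DFFA*, 25.5 to 51.5 TPM in KO against 15.0 to 21.2 TPM, with 109 TPM in WT_1).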

How the data were processed

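The authors extracted mRNA from single blastocysts, made 1 library per embryo and deposited TPM values, each library summing to 1000000. Their processing notes name FastQC, fastp and kallisto, with versions not given in the sources used here. The labels and the methods describe different kits, 1 of them stranded, so whether strand was used is unknown. All 9 columns were used and assigned to a genotype by name. Genes with a median above 0.1 TPM were tested with limma 3.58.1 (trend) in R 4.3.3 on log2(TPM + 1), so that fold changes of low genes are understated, with Benjamini-Hochberg adjustment over 14599 genes and calls past both an adjusted p of 0.05 and a log2 fold change of 1 in size. Single genes were also tested by exact permutation of the embryos (scipy 1.17.1, the smaller tail doubled). The limma fit was also run on simulated data, and the exact test on fixed values with separated groups and with equal values.

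Members and lists were chosen with earlier results of these data known. Full values are given for *TEAD4*, for members without overlap, with an unadjusted p under 0.05, most abundant, or with the largest change of a sub-group, and pathway genes are named by the same criteria without the last. Any other gene was picked with its values in view, as the text says. Calls, list medians and log2 fold changes (and non-overlap counts, for embryos, scalings and filters) were recomputed without each embryo in turn, with array weights, robust variances or no trend in limma, after quantile normalization or scaling by median-of-ratios size factors, with a filter at a median of 1 TPM or none, and with 0.1 TPM as the pseudocount. Symbols of all 37 members are in the RefSeq annotation of ARS-UCD2.0. Separate injection sessions are not named in the labels.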

Additional observations from a re-analysis of the deposited data

Results flagged for a closer look

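In 90 groups of 1 gene and 1 genotype, 9 had an embryo far from the others on the log2(TPM + 1) scale by Dixon's criterion, which chance meets in about 1 of 20 groups. Of these, 6 were WT_1. It was high in *MDM2* (299 TPM, next 36.9 TPM), *ZMAT3* (18.4 TPM, next 2.50 TPM), *MDM4* (14.3 TPM, next 8.32 TPM), *PHLDA3* (902 TPM, next 205 TPM) and *DFFA* (109 TPM, next 21.2 TPM), and low in *BID* (21.3 TPM, next 46.7 TPM). Among the KO embryos, TE_1 was low in *MDM4* (3.49 TPM, next 10.4 TPM) and *GADD45B* (19.7 TPM, next 53.3 TPM), and it was alone the lowest embryo in 26.6% of all tested genes, with a size factor of 0.776. TE_2 lay the other way, as the highest embryo in 23.3% of all tested genes, with a size factor of 1.264. TE_3 was high in *CASP8* (3.56 TPM, the others listed at 0), where any value above 0 would have met the criterion, so that it adds nothing to the count. *PHLDA3* and *DFFA* had been picked because of their value in WT_1, so their place here adds nothing either. With *CASP8*, *PHLDA3* and *DFFA* left out, *MDM2*, *ZMAT3*, *MDM4* and *BID* in WT_1 and *MDM4* and *GADD45B* in TE_1 remain. The members were chosen with earlier results of these data known, so the rate of 1 in 20 gives no expected count here. No conclusion about chance is drawn. The criterion was applied to 45 genes only, so no share over all tested genes is given. Genes measured in 1 embryo share their library, so these values are not independent.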

How the results depend on the processing

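Over 17 alternatives, 0 of the tested members were called by limma, the smallest adjusted p of any member was 0.353, and 19 of the 34 kept the sign of their log2 fold change. For *CASP8*, *BCL2L2* and *BMF* there were 16 alternatives, because they did not pass the filter at a median of 1 TPM. The count of all genes called, 3 with the settings of the report, was 8 with a pseudocount of 0.1 TPM, 8 with a median above 1 TPM, 5 with size factors, 6 after quantile normalization, 5 without trend and 6 with robust variances, and 0 to 10 when 1 embryo was left out. The count of members whose genotypes did not overlap ranged from 0 to 3 when 1 embryo was left out, with 3 without WT_1, 2 without TE_2 (*BIRC2* and *XIAP* lower in KO, as were 4.12% of all tested genes), 1 without TE_3 (*CASP8* lower, with 3.26% of all) and 1 without TE_4 (*FADD* higher, with 1.82% of all). Without WT_1, 1.51% of all were higher and 2.20% lower. Among the pathway genes outside the members, KO embryos left out gave *TRADD* and *ATM* higher and *BCL2L14* lower (without TE_1, with 2.45% and 1.84% of all), *CCNG2* lower (without TE_2), *ENDOG* higher (without TE_3, with 1.78%) and *TP73* and *SIVA1* higher (without TE_4). The median log2 fold change of the members ran from −0.07 to 0.24 in those fits. It was 0.09 with size factors and 0.11 with array weights, and that of the p53 pathway 0.44 with array weights. That of the apoptosome and caspases was −0.60 with a pseudocount of 0.1 TPM and −0.14 without TE_1. Fewer embryos make a lack of overlap easier to meet. An exact test on absolute differences, chosen after the data were seen, moved *FADD* to the other side of 0.05 (p = 0.0397) and *BCL2L14* likewise (p = 0.0556), and no other tested member or named pathway gene.

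The sign of small log2 fold changes changed with size factors (*BCL2L2* 0.0132, *MCL1* 0.0556), quantile normalization (*BCL2L2* 0.0498) and array weights (*BCL2L2* 0.0754, *MCL1* 0.13, *MDM4* 0.0537, *FDXR* −0.11). The cause was not tested. Leaving out 1 embryo gave ranges that crossed 0 for *BCL2L1* (−0.0433 to 0.18), *BCL2L2* (−0.18 to 0.10), *MCL1* (−0.20 to 0.27), *BMF* (−0.19 to 0.49), *BBC3* (−0.48 to 0.33), *CASP2* (−0.32 to 0.13), *FAS* (−0.13 to 0.69), *CFLAR* (−0.76 to 0.0010), *DIABLO* (−0.0358 to 0.0695), *MDM4* (−0.25 to 0.23), *AEN* (−0.27 to 0.51), *FDXR* (−0.00061 to 0.37), *GADD45B* (−0.0616 to 0.46), *BTG2* (−0.44 to 0.54), *RRM2B* (−0.19 to 0.0371) and *CCNG1* (−0.0600 to 0.63). The number of reads behind low values such as those of *CASP8* and *XIAP* cannot be recovered from TPM.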
